A study of Homo sapiens with 12 samples.

Results

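The genes described here are 43 interferon-stimulated and antigen presentation genes, chosen from a list by symbol and matched to Ensembl identifiers, including the sensors of foreign or misplaced DNA and RNA. Of these, 41 had a row among the 17508 genes of the count table, and 40 had at least 1 exon count in the 12 libraries. MX1 and SAMD9 were not analysed here. CMPK2, which encodes a mitochondrial nucleotide kinase, was listed at 0 exon counts and 0 intron counts in every library.

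Poly(A) RNA of TYK-nu cells, labelled as a high grade serous ovarian adenocarcinoma line, was sequenced to ask whether cisplatin, a platinum drug that cross-links DNA, alters the splicing of RNA. The 4 groups were cells given the vehicle DMSO for 24 h, 15 μM cisplatin for 24 h, DMSO for 72 h or 15 μM cisplatin for 72 h, with 3 replicates in each, so that every group had received vehicle or drug and no untreated cells were among them. Fragments were counted per gene separately over exons and over introns. Neither the labels nor the methods say whether the replicates were separate cultures started on different days, so the p-values measure the spread between these libraries, which may be partly technical. A longer time also meant a longer culture, so that cell density and the age of the medium cannot be told apart from time.

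Interferons are secreted proteins that tell cells of an infection. Cytosolic sensors such as RIG-I and MDA5 (RNA) or cGAS with STING (DNA) switch on the type I interferon gene IFNB1, and the interferon then acts through its receptor and the kinases JAK1 and TYK2 on a complex that includes STAT2 and IRF9. This complex binds the interferon-stimulated response element (ISRE) in front of many genes that block viral replication, tag proteins with ISG15, or load peptides onto class I HLA molecules for display to T cells. In cancer cells the same genes can be active without any virus. Positions of 18 members overlap an annotated gene on the opposite strand, and the strand setting of the counting is not given in the sources used here. RIGI, IRF9, TRIM25 and TAP2 overlap a protein-coding gene on the same strand.

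Letters of known interferon response elements were searched near the start sites of the members. The core of the ISRE was searched as GAAA, NN and GAAA in direct succession (N is any base) on both strands in the promoters of RefSeq (GRCh38.p14, 250 bases before to 50 bases after each start), with overlapping matches all kept. Of the 33 members with an entry, 19 (57.6%) held a match, against 3.57% of 35116 promoters and 3.77% of the 8504 genes tested in exon counts that had an entry. The core of the gamma-activated site, searched as TTC, NNN and GAA in succession, was found for 8 of the 33 (24.2%), against 7.66% of all promoters and 8.24% of the tested genes with an entry. A match is a string of letters and not a measured binding site. The following stretches, each on the strand of its gene with the matches of the ISRE core in capitals, are shown as examples of single, overlapping and separate cores in members of several roles, whose changes with time are given below (the capitals do not mark gamma-activated cores, which also lie within the BST2 and PARP14 stretches): ISG15 (chr1:1013369-1013414, plus strand), IFIT1 (chr10:89392492-89392544, plus), IFI6 (chr1:27672261-27672363, minus), BST2 (chr19:17405730-17405775, minus), HERC5 (chr4:88456979-88457069, plus), PARP14 (chr3:122680795-122680834, plus), B2M (chr15:44711358-44711403, plus), TAP1 (chr6:32853808-32853853, minus) and TAP2 (chr6:32838773-32838812, minus).
ISG15: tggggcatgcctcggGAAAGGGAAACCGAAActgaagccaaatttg
IFIT1: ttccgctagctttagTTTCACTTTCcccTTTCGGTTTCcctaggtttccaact
IFI6: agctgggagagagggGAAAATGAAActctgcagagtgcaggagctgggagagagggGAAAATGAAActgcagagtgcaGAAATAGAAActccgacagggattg
BST2: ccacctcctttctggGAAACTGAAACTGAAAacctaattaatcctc
HERC5: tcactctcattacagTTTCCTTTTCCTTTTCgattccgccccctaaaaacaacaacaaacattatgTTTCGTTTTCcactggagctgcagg
PARP14: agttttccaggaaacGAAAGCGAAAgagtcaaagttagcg
B2M: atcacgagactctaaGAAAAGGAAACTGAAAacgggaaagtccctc
TAP1: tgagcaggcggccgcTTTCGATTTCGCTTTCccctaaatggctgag
TAP2: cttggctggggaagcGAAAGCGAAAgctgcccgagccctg

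PARP9 and DTX3L are neighbours that point away from each other, and the same match lies in the promoters of both. It is shown once, within the stretch chr3:122564317-122564356 on the DTX3L strand. The promoter of IRF1, which encodes an interferon-induced transcription factor, held no ISRE core but 1 gamma-activated core, shown in capitals within the stretch chr5:132490874-132490912 on the minus strand.
DTX3L and PARP9: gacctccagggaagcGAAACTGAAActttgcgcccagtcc
IRF1: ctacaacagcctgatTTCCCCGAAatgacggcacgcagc

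Libraries held 18526830 to 68753262 exon and intron counts together, and introns took 6.26 to 7.17% of them. The identity given by the labels was checked with marker genes, in exon CPM (counts per 1000000 exon counts, scaled by edgeR's TMM method). Of 7 serous ovarian markers with an entry, 4 had a median below 1 CPM, PAX8 and SOX17 among them, while KRT18 was at 133 to 181 CPM. Of 7 leukocyte markers, 6 were below 1 CPM, with PTPRC, CD4 and CD8A at 0 in all libraries and CD68 at 322 to 657 CPM. Of 7 fibroblast and endothelial markers, 5 were below 1 CPM, but the endothelial adhesion genes PECAM1 and CDH5 were at 1350 to 2491 CPM and 658 to 1046 CPM, which goes against a purely serous identity. The summed leukocyte markers, almost wholly CD68, ran from 323 to 379 CPM in the 24 h libraries and from 593 to 658 CPM in the 72 h libraries. The summed fibroblast and endothelial markers were at 3355 to 3479 CPM at 24 h and at 2033 to 2308 CPM at 72 h. These lists moved with time, and their part in the changes with time was not tested.

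Nearly every member rose between 24 h and 72 h, with or without the drug. Among the 10444 genes tested in exon counts (edgeR's quasi-likelihood test, adjusted p under 0.05), 39 of the 40 members were higher at 72 h than at 24 h in DMSO and 1 was lower, against 65.1% of all genes, 32.6% higher and 32.5% lower. In cisplatin, again 39 members were higher and 1 was lower, against 63.5% of all genes, 32% higher and 31.5% lower. The median member changed by 2.13 on the log2 scale in DMSO and by 2.20 in cisplatin, beside medians of 0.01 and 0.02 over all genes tested. The 3 libraries at 72 h all lay above the 3 at 24 h for 38 members in DMSO (34% of all genes) and for 39 in cisplatin (34%), and CGAS lay wholly below in both (33.4% and 33.2% of all genes lay below). TAP2 was the member whose DMSO libraries overlapped. Expression is measured here in bulk, so that more cells with an active program and more RNA per cell cannot be told apart.

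**Figure D1:**
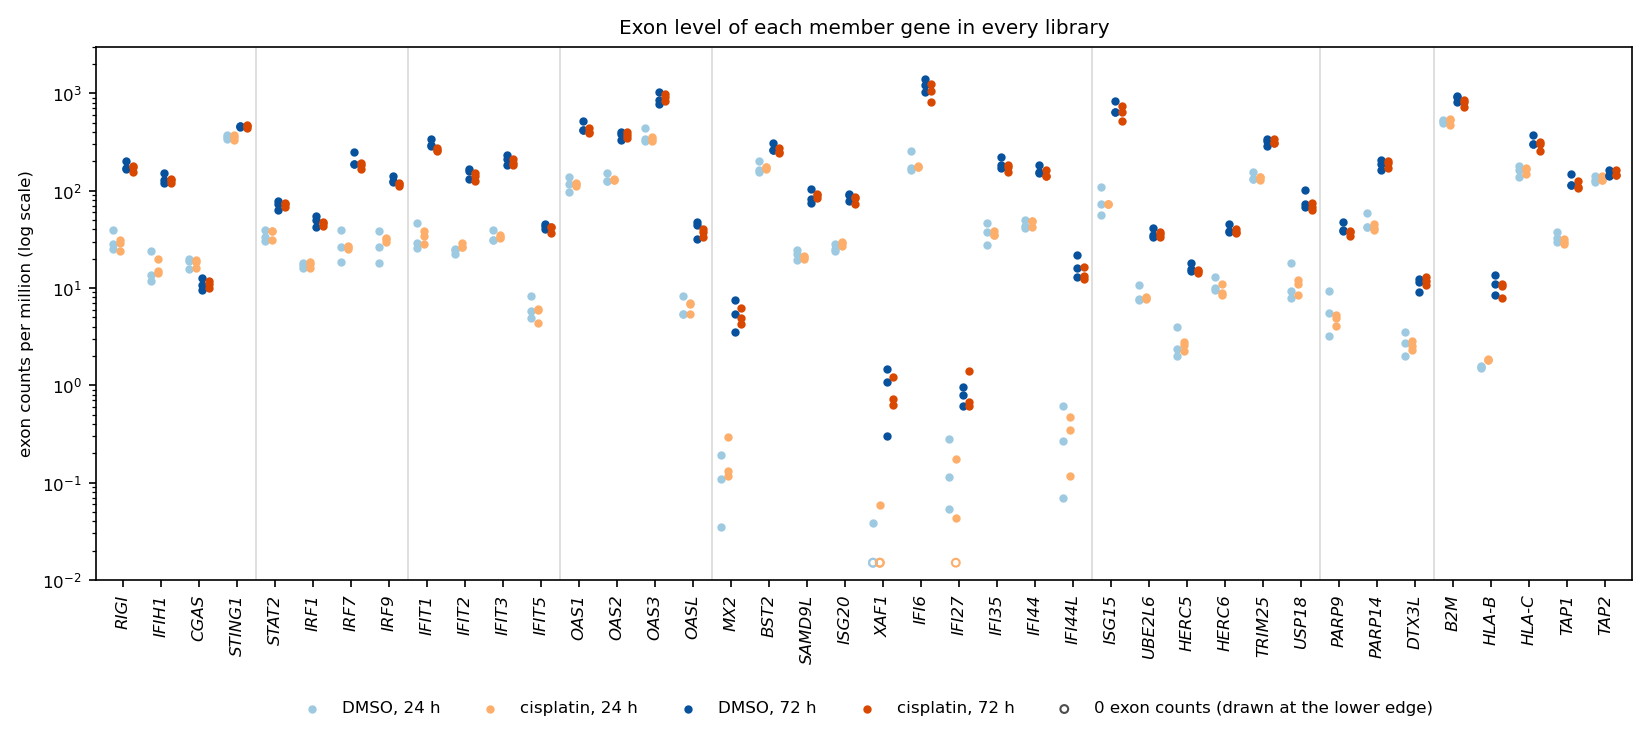
Exon CPM on a log axis (y) for the 40 detected members (x, grouped by role between grey lines), with 1 point for each of the 12 libraries and open points for libraries with 0 counts. The dark points of 72 h lie above the pale points of 24 h for all members but CGAS, which lies lower, and TAP2, whose DMSO points overlap, while blue (DMSO) and orange (cisplatin) points of the same time lie on top of each other for most genes.

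The members IFI27, IFI44L, MX2 and XAF1, passed the filter on low counts through their 72 h libraries, and a rise was bound to be seen for them once they passed. Without these 4, 35 of 36 members were higher and 1 was lower in both comparisons, with medians of 1.96 in DMSO and 2.14 in cisplatin. A rise of more than 4-fold in both comparisons was called for 86 genes (0.823% of those tested). Among the 10142 genes that passed the filter in the 24 h libraries alone it was called for 43 (0.424%), and 16 of the 43 were members.

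The sensors did not move together. RIGI encodes RIG-I, which recognises RNA with a 5′ triphosphate. Its exon level was 39.0, 28.6 and 24.9 CPM in the DMSO libraries at 24 h and 202, 167 and 172 CPM at 72 h, and it was 29.3, 24.0 and 31.2 CPM in cisplatin at 24 h and 176, 156 and 181 CPM at 72 h. The time groups were far apart and the DMSO and cisplatin libraries overlapped at both times. The log2 change with time was 2.54 ± 0.11 (SE) in DMSO and 2.62 ± 0.12 in cisplatin (adjusted p = 3.8e-15 and 3.7e-15). IFIH1, which encodes MDA5, a sensor of long double-stranded RNA, rose by 3.00 ± 0.15 and 2.96 ± 0.15 on the same scale.

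The DNA-sensing members differed from each other, with CGAS lower at 72 h and STING1 higher. CGAS encodes the enzyme that makes the messenger cGAMP from cytosolic DNA. It was at 19.1, 15.8 and 19.7 CPM in DMSO at 24 h and at 12.8, 9.59 and 10.7 CPM at 72 h, while the cisplatin libraries read 19.3, 16.2 and 18.4 CPM and then 11.9, 9.93 and 11.1 CPM. Every 72 h library lay below every 24 h library. CGAS, which overlaps DDX43 on the opposite strand, was the member that fell, with a log2 change of -0.72 ± 0.11 in DMSO and -0.71 ± 0.11 in cisplatin (adjusted p = 7.5e-06 and 7.0e-06). STING1, which encodes the receptor of cGAMP, was already at 353 ± 16.2 CPM (SD, n = 3) in DMSO at 24 h and rose to 456 ± 7.19 CPM, a log2 change of 0.37 ± 0.05, with 0.39 ± 0.05 in cisplatin.

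All 4 transcription factors rose. IRF7, the factor that amplifies type I interferon genes, showed the largest change of them. It was at 39.4, 26.1 and 18.7 CPM in DMSO at 24 h and at 249, 189 and 188 CPM at 72 h, with 26.8, 24.9 and 26.6 CPM and then 167, 185 and 195 CPM in cisplatin. The spread among the DMSO libraries at 24 h was wider than among the cisplatin libraries, and the times did not overlap. The log2 change was 2.88 ± 0.15 in DMSO and 2.81 ± 0.15 in cisplatin. IRF9, the DNA-binding part of the complex with STAT2, rose by 2.20 ± 0.13 and 1.90 ± 0.13, IRF1 by 1.49 ± 0.09 and 1.40 ± 0.09, and STAT2 by 1.04 ± 0.09 and 0.99 ± 0.09.

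The IFIT genes encode proteins that bind viral RNA lacking the marks of a host cap, and all 4 rose. IFIT1 was at 46.7, 28.8 and 26.0 CPM in DMSO at 24 h and at 339, 289 and 296 CPM at 72 h. In cisplatin it was at 38.4, 28.1 and 33.9 CPM at 24 h and at 259, 258 and 276 CPM at 72 h. At 72 h the cisplatin libraries of IFIT1 all lay below the DMSO libraries, by a margin described further on. The change with time was 9.03-fold in DMSO and 7.96-fold in cisplatin (log2 3.17 ± 0.13 and 2.99 ± 0.13). IFIT2, IFIT3 and IFIT5 changed by 2.67, 2.63 and 2.74 on the log2 scale in DMSO and by 2.35, 2.54 and 2.92 in cisplatin. IFIT1, IFIT2 and IFIT3 overlap LIPA on the opposite strand.

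The OAS enzymes make 2′-5′ oligoadenylates that turn on RNase L. OAS3 had the highest level of the 4 per kilobase (20.5 CPM in DMSO at 24 h) and the smallest rise, from 446, 340 and 323 CPM in DMSO at 24 h to 1038, 771 and 861 CPM at 72 h. Its cisplatin libraries read 324, 361 and 341 CPM and then 929, 834 and 980 CPM. The times did not overlap, and the log2 change was 1.27 ± 0.10 in DMSO and 1.42 ± 0.10 in cisplatin. OAS2 changed by 1.47 and 1.52, OAS1 by 1.95 and 1.82, and OASL, an OAS relative without the enzyme activity, by 2.71 and 2.52, all past the test.

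Among the other effectors, 10 members were tested and 10 rose in both comparisons. The 4 that passed through their 72 h libraries were almost absent at 24 h. IFI44L had 16, 2 and 5 exon counts in the DMSO libraries at 24 h, and its level went from 0.614, 0.0698 and 0.269 CPM to 22.0, 13.0 and 15.9 CPM at 72 h. In cisplatin it went from 0.35, 0.117 and 0.467 CPM to 12.4, 13.1 and 16.5 CPM. The log2 change was 5.73 ± 0.31 and 5.66 ± 0.33.

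XAF1, which encodes a pro-apoptotic partner of XIAP and overlaps the noncoding gene PRAL on the opposite strand, had 1 exon count in all over the 3 DMSO libraries at 24 h and 90 counts at 72 h. The ratio of its counts per library size was 70.6 (95% exact interval for counting error, 12.4 to 2819). In cisplatin it had 1 count at 24 h and 110 at 72 h, a ratio of 57.8 (10.2 to 2305). MX2, a dynamin-like GTPase that restricts viruses at the nuclear pore, rose from 0.112 ± 0.0785 to 5.50 ± 2.04 CPM in DMSO (SD, n = 3). IFI27 went from 12 to 73 counts in DMSO and from 4 to 114 counts in cisplatin, ratios of 4.77 (2.57 to 9.66) and 15.0 (5.69 to 55.9).

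IFI6, a small mitochondrial and endoplasmic reticulum protein that blocks apoptosis and flavivirus replication, was the most abundant member per length at both times. It was at 254, 170 and 163 CPM in DMSO at 24 h and at 1404, 1217 and 1037 CPM at 72 h, and at 178, 176 and 176 CPM and then 818, 1051 and 1246 CPM in cisplatin. The 3 cisplatin libraries at 24 h were nearly equal, those at 72 h were spread, and the times did not overlap. Per kilobase of annotated exon, IFI6 stood at 209 CPM at 24 h and 1303 CPM at 72 h in DMSO. B2M and BST2 came next at 24 h, with 165 and 157 CPM per kilobase, ahead of ISG15 with 90.7. At 72 h ISG15 came second with 815 CPM per kilobase, ahead of B2M with 286 and BST2 with 254. BST2, the tetherin that holds budding viruses at the membrane, had the smallest log2 change of the effectors, 0.69 ± 0.08 in DMSO and 0.57 ± 0.08 in cisplatin. The remaining effectors ISG20, SAMD9L, IFI35 and IFI44 changed by 1.74, 1.96, 2.36 and 1.85 in DMSO.

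**Figure D2:**
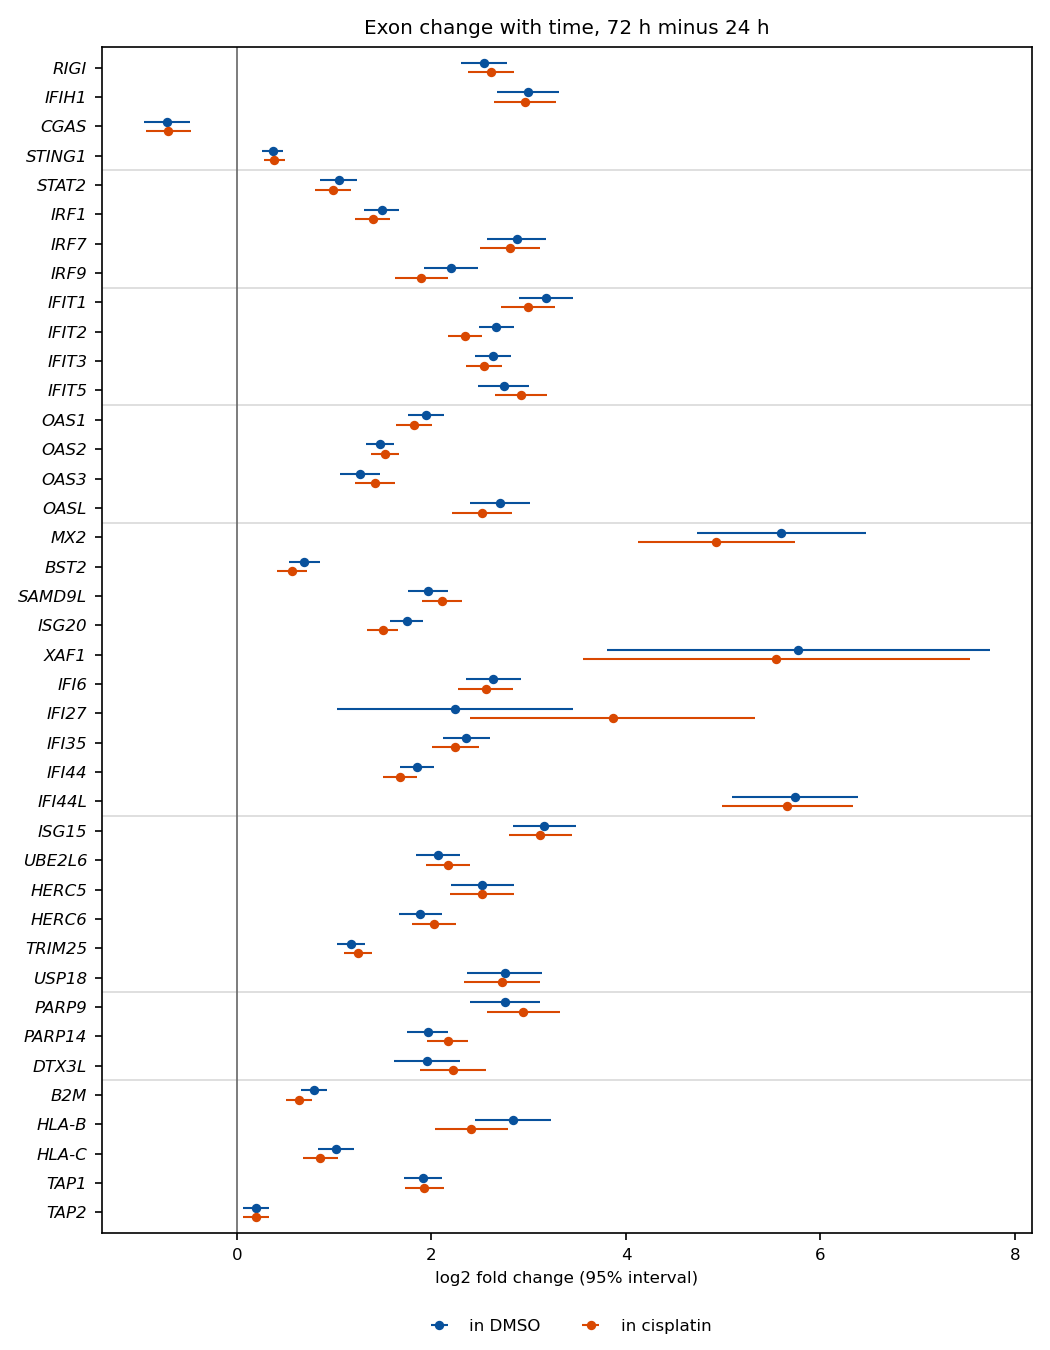
Log2 fold change of exon counts from 24 h to 72 h (x) with 95% intervals for each of the 40 members (y, grouped by role), in DMSO (blue) and in cisplatin (orange). All intervals lie to the right of 0 except those of CGAS, which lie to the left, and the blue and orange intervals overlap for most members.

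All 6 members of the ISG15 system rose. ISG15 is a ubiquitin-like protein, UBE2L6 the enzyme that carries it, HERC5 the ligase that attaches it, and USP18 the protease that removes it and also dampens the interferon receptor. ISG15 was at 108, 72.2 and 55.8 CPM in DMSO at 24 h and at 837, 647 and 637 CPM at 72 h, and at 72.3, 73.4 and 73.3 CPM and then 515, 643 and 743 CPM in cisplatin. The 72 h libraries lay far above those of 24 h, and DMSO and cisplatin overlapped at both times. The log2 change was 3.16 ± 0.16 in DMSO and 3.12 ± 0.16 in cisplatin (adjusted p = 2.0e-14 and 3.1e-14). USP18 changed by 2.75 and 2.72, HERC5 by 2.52 and 2.52, UBE2L6 by 2.06 and 2.17, HERC6 by 1.88 and 2.03, and TRIM25, a ligase that also activates RIG-I, by 1.17 and 1.25.

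The 3 genes of ADP-ribosylation rose as well. PARP9 and its partner DTX3L, which share the promoter element above, changed by 2.76 ± 0.17 and 1.96 ± 0.16 in DMSO and by 2.94 ± 0.18 and 2.22 ± 0.16 in cisplatin. PARP14 changed by 1.96 ± 0.10 and 2.17 ± 0.10. PARP9 and DTX3L overlap on opposite strands, so part of the counts of each may come from the other.

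The antigen presentation genes were uneven. B2M, the invariant light chain of class I molecules, was at 495, 530 and 521 CPM in DMSO at 24 h and at 916, 950 and 814 CPM at 72 h, with 546, 479 and 527 CPM and then 732, 816 and 865 CPM in cisplatin. It was high at 24 h already, and the times did not overlap. Its log2 change was 0.79 ± 0.06 in DMSO and 0.64 ± 0.06 in cisplatin. HLA-C, a class I heavy chain, changed by 1.02 ± 0.09 and 0.86 ± 0.09. HLA-B was lower by far per length than HLA-C in DMSO at 24 h, at 0.333 against 63.9 CPM per kilobase, and it rose more.

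HLA-B was at 1.57, 1.54 and 1.51 CPM in DMSO at 24 h and at 13.8, 8.53 and 10.9 CPM at 72 h, a log2 change of 2.84 ± 0.19, with 2.41 ± 0.18 in cisplatin. Class I genes are near-identical in sequence and differ between cell lines, so reads of one may be lost or counted for another. The peptide transporter subunits parted: TAP1 changed by 1.91 ± 0.10 and 1.93 ± 0.10, and TAP2 by 0.20 ± 0.07 and 0.19 ± 0.07 (adjusted p = 0.012 and 0.013). TAP2 was at 143, 128 and 122 CPM in DMSO at 24 h and at 163, 141 and 147 CPM at 72 h, groups that overlapped. Its call in DMSO was lost without DMSO replicate 3 of 24 h (adjusted p = 0.072) or DMSO replicate 1 of 72 h (0.11), and its call in cisplatin without replicate 1 or 3 of 24 h or replicate 3 of 72 h (0.059, 0.051 and 0.091). TAP1 overlaps PSMB9 on the opposite strand.

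The size of the rise was described by promoter class, with no test, over the 36 members that passed the filter in the 24 h libraries alone. The 17 with an ISRE core had median log2 changes of 1.96 in DMSO and 2.22 in cisplatin, the 12 without one had 1.95 and 1.96, and the 7 without a promoter entry had 2.67 and 2.35. TAP2 and BST2, with cores printed above, were among the smallest rises.

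The wider pathway was read from 70 tested genes outside the list. Of these, 51 were higher at 72 h and 8 were lower in DMSO, and 51 were higher and 5 lower in cisplatin, where 32.6% and 32.5% of all genes were higher and lower in DMSO and 32% and 31.5% in cisplatin. Among further interferon-stimulated genes, 30 of 33 were higher in each comparison. RSAD2, CXCL10, TRIM22, CCL5 and IFNB1 passed the filter on low counts only through their 72 h libraries, so that a rise was bound to be seen for them. Without these 5, 46 of 65 genes were higher in each comparison, and 8 were lower in DMSO and 5 in cisplatin. Of the further interferon-stimulated genes, 26 of 29 were then higher in each comparison. RSAD2, the antiviral enzyme viperin, changed by 5.14 ± 0.35 and 3.92 ± 0.32, TRIM22 by 4.47 ± 0.44 and 4.63 ± 0.47, and DHX58, a regulator of RIG-I and MDA5, by 3.36 ± 0.16 and 3.08 ± 0.16. The chemokine CXCL10 had 4 counts in DMSO at 24 h and 75 at 72 h, a ratio of 14.7 (5.51 to 55.4), and 2 and 137 counts in cisplatin, a ratio of 36.0 (9.78 to 300.4). CCL5, PARP10, GBP1, HELZ2, PARP12 and DDX60 were the others with the largest calls, at 2.52, 3.07, 2.88, 2.27, 2.31 and 2.24 in DMSO.

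Of the ligands, IFNB1 alone passed the filter, through its 72 h libraries. It had 1, 0 and 0 exon counts in the DMSO libraries at 24 h and 9, 4 and 18 at 72 h, and 1, 0 and 0 in cisplatin at 24 h and 26, 21 and 17 at 72 h. The ratio of counts per library size was 24.3 (4.05 to 991) in DMSO and 33.6 (5.83 to 1350) in cisplatin. IFNE was at 0 to 8 counts, and IFNL1 and IFNG were at no more than 3 counts in any library.

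Receptors changed less. IFNAR1 had a log2 change of -0.27 ± 0.08 in DMSO (adjusted p = 0.0034) and of -0.14 ± 0.08 in cisplatin (0.11), and IFNAR2 one of -0.14 ± 0.10 (0.23) and -0.33 ± 0.10 (0.0063). IFNGR2 rose by 0.67 ± 0.05 and 0.59 ± 0.05, IFNGR1 by 0.48 ± 0.12 and 0.32 ± 0.12, and IL10RB by 0.29 ± 0.07 and 0.25 ± 0.07. The receptor of type III interferons, IFNLR1, was listed at 0 in every library. Of the class II genes, CIITA and CD74 were also listed at 0, and of the 2 tested, 1 was higher in DMSO and 0 in cisplatin.

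No difference between cisplatin and DMSO was called at 24 h. This held for the members, with 0 of 40, and for all 10444 genes (0%). At an unadjusted p under 0.05 there were 0 members, against 2.49% of all genes, and DESeq2 called 0 members. The median log2 difference of the members was -0.05, beside -0.0005 over all genes, with 27 member estimates below 0 and 13 above. Leaving aside the 4 genes nearly absent at 24 h, the 95% intervals of the members reached from -0.82 at the lowest (PARP9) to 0.76 at the highest (HLA-B). All 3 cisplatin libraries lay above all 3 DMSO libraries for IFIT2 and HLA-B (3.33% of all genes) and below them for 0 members (3.09%). IFIT2 was at 25.4, 22.3 and 24.5 CPM in DMSO and at 29.3, 26.2 and 26.6 CPM in cisplatin, a log2 difference of 0.19 ± 0.09 (unadjusted p = 0.051).

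At 72 h cisplatin again gave 0 called members, against 3 of all genes (0.0287%). DESeq2 called 0 members as well. The fit with no filter beyond 1 count called 3, IFI6 at -0.23, IFIT1 at -0.22 and USP18 at -0.25. That fit also called more of all genes than the main fit did, as given in the last section. In the main fit the median difference of the members was -0.12, beside 0.0005 over all genes, and 31 of 40 member estimates lay below 0. One member had an unadjusted p under 0.05, against 12.6% of all genes. This was B2M, at a log2 difference of -0.15 ± 0.06 (95% interval -0.28 to -0.02, adjusted p = 0.34). The cisplatin libraries lay wholly below the DMSO libraries for IRF9 and IFIT1 (9.3% of all genes) and wholly above for 0 members (8.85%). IFIT1 differed by -0.22 ± 0.12 (95% interval -0.46 to 0.02), and IRF9, at 140, 125 and 122 CPM against 113, 120 and 117 CPM, by -0.15 ± 0.12. Apart from the 4 genes named above, the intervals ran from -0.57 (USP18) to 0.38 (DTX3L).

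**Figure D3:**
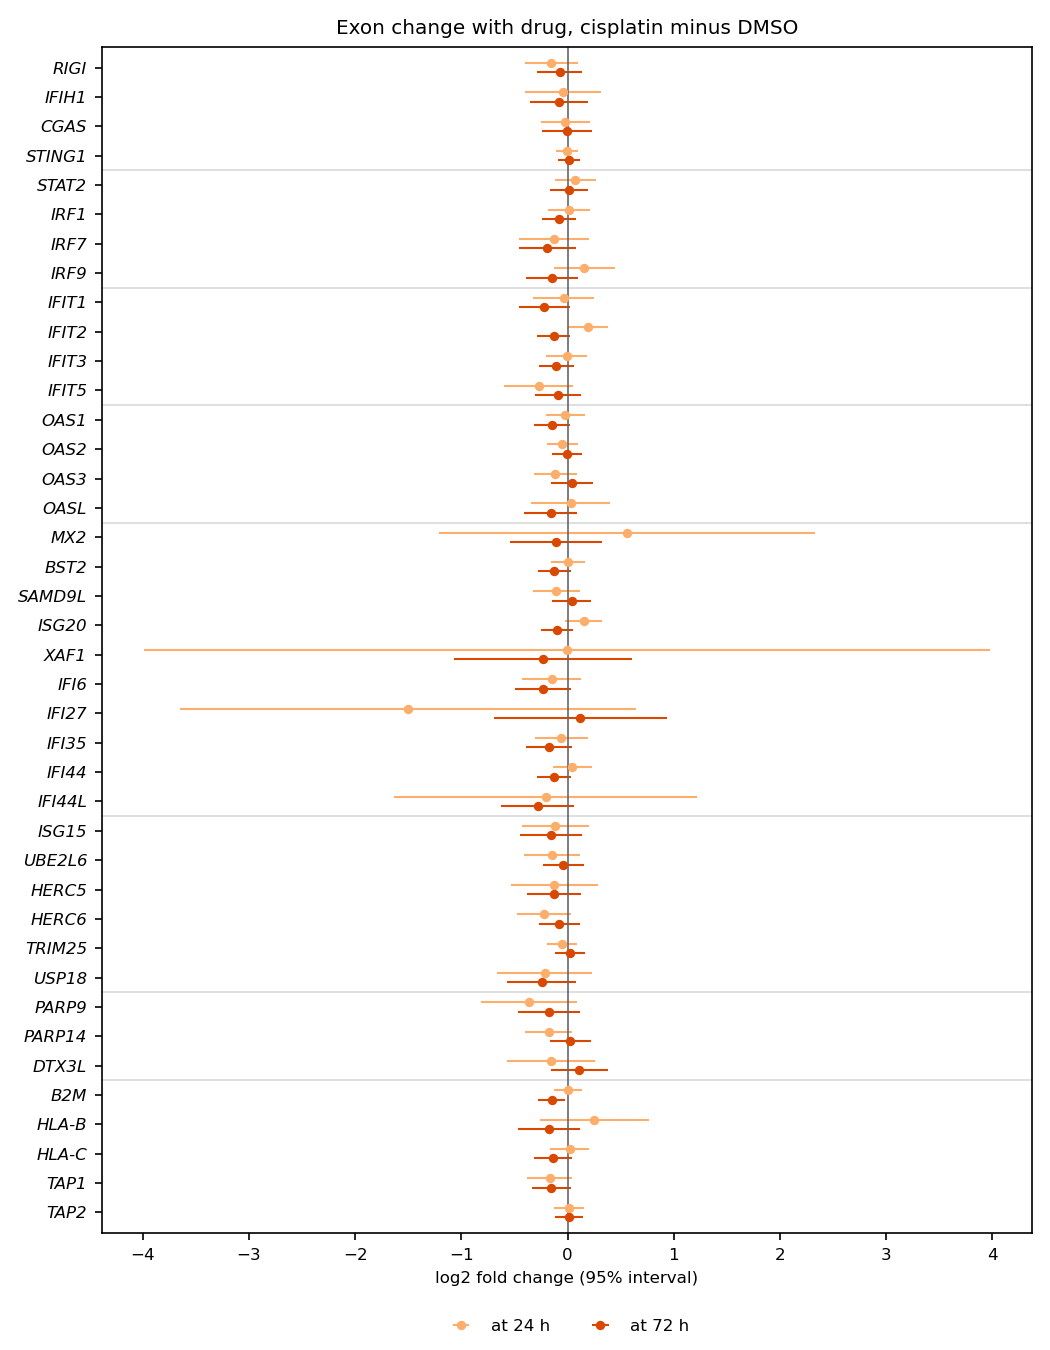
Log2 difference of exon counts between cisplatin and DMSO (x) with 95% intervals for each of the 40 members (y, grouped by role), at 24 h (pale) and at 72 h (dark). The intervals cross 0 for all members except B2M at 72 h (-0.28 to -0.02), and they are widest at 24 h for XAF1, IFI27, MX2 and IFI44L, which had few counts there.

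The cisplatin estimates moved with single DMSO libraries. DMSO replicate 1 was the highest of the 6 libraries of its time for 30 of 40 members at 24 h and for 35 of 40 at 72 h, and DMSO replicate 3 was the lowest for 24 members at 24 h. These ranks were taken over the members alone, and whether other genes rank alike was not tested. Without DMSO replicate 1 of 24 h, the median difference at 24 h turned from -0.05 to 0.10, with 34 estimates above 0. Without DMSO replicate 1 of 72 h, the median difference at 72 h went from -0.12 to -0.02, with 23 estimates below 0. In both fits 0 members were called. The cause of the higher level in these libraries was not tested. They held 28106882 and 26921033 counts, within the range of the others.

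**Figure D4:**
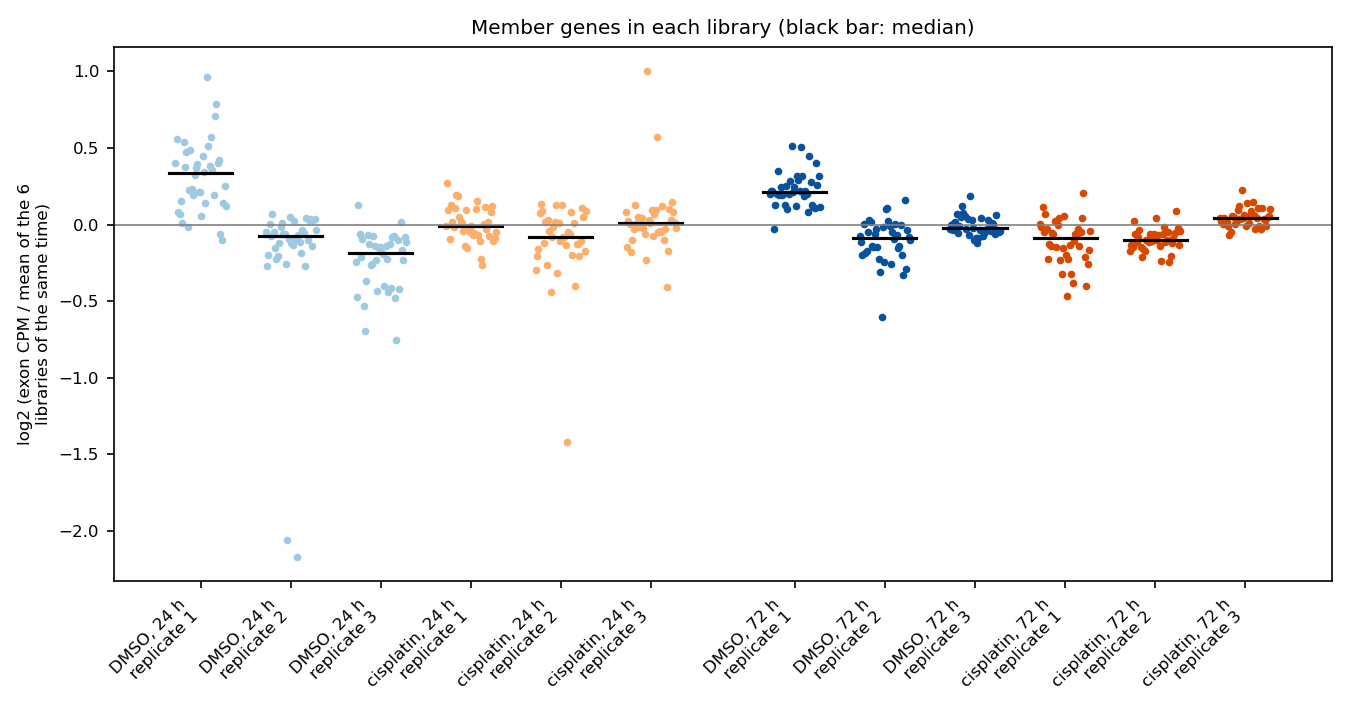
For each library (x), the log2 ratio of each member's exon level to the mean of the 6 libraries of the same time (y), with a black bar at the median over members; XAF1 and IFI27, which had libraries at 0, are left out. Most points of DMSO replicate 1 sit above 0 at both times (highest of 6 for 30 and 35 of the 40 members), and the medians of the other libraries lie close to or below 0.

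The change with time itself was compared between DMSO and cisplatin by the interaction term. It was called for 0 members and 0 of all genes (0%), and DESeq2 also called 0 members. At an unadjusted p under 0.05 there were 2 members, against 9.43% of all genes. They were IFIT2, whose rise was smaller in cisplatin by 0.32 ± 0.12 on the log2 scale (-0.32, 95% interval -0.57 to -0.07), and ISG20 (-0.25 ± 0.11). The median interaction was -0.05 with all libraries, -0.25 without DMSO replicate 1 of 24 h and 0.07 without DMSO replicate 1 of 72 h.

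Intron counts, which take in RNA not yet spliced and other reads in introns, rose together with exon counts. The origin of the intron reads was not tested. Of the 37 members tested, 35 were higher at 72 h in DMSO (17.2% of the 9618 genes tested) and 34 in cisplatin (16.4%), and 0 were lower (16.2% and 15.4%). The median log2 change was 2.30 in DMSO and 2.08 in cisplatin, beside -0.01 and -0.02 over all genes. Of the 37, 11 passed the filter on intron counts only through their 72 h libraries, ISG15, IFIT1 and IFIT3 among them. Of the other 26, 24 were higher in both comparisons, with medians of 1.81 and 1.62. The members that did not pass were CGAS (-0.28 ± 0.46 and -0.85 ± 0.53) and STING1 (0.07 ± 0.10 and 0.15 ± 0.10) in both, and HERC5 in cisplatin (0.97 ± 0.51). Besides IFI44L, XAF1 and MX2, with few intron counts at 24 h, IFI6 had the largest intron change, 3.90 ± 0.17 and 3.67 ± 0.17. Its 3 DMSO libraries held 163, 75 and 31 intron counts at 24 h.

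Between cisplatin and DMSO, 0 members were called in intron counts at 24 h (0.0208% of all genes) or 72 h (0.0416%), with 4 and 5 at an unadjusted p under 0.05 (5% and 6.46% of all genes). DESeq2 called 0 at both times. IRF7 had the smallest p at 72 h, with a log2 difference of -0.41 (unadjusted p = 0.0031), and it was called in the fit of the 6 libraries of 72 h alone (-0.41 ± 0.09, adjusted p = 0.011). The interaction called 0 members (0.0416% of all genes), with 6 at an unadjusted p under 0.05 (5.71%).

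**Figure D5:**
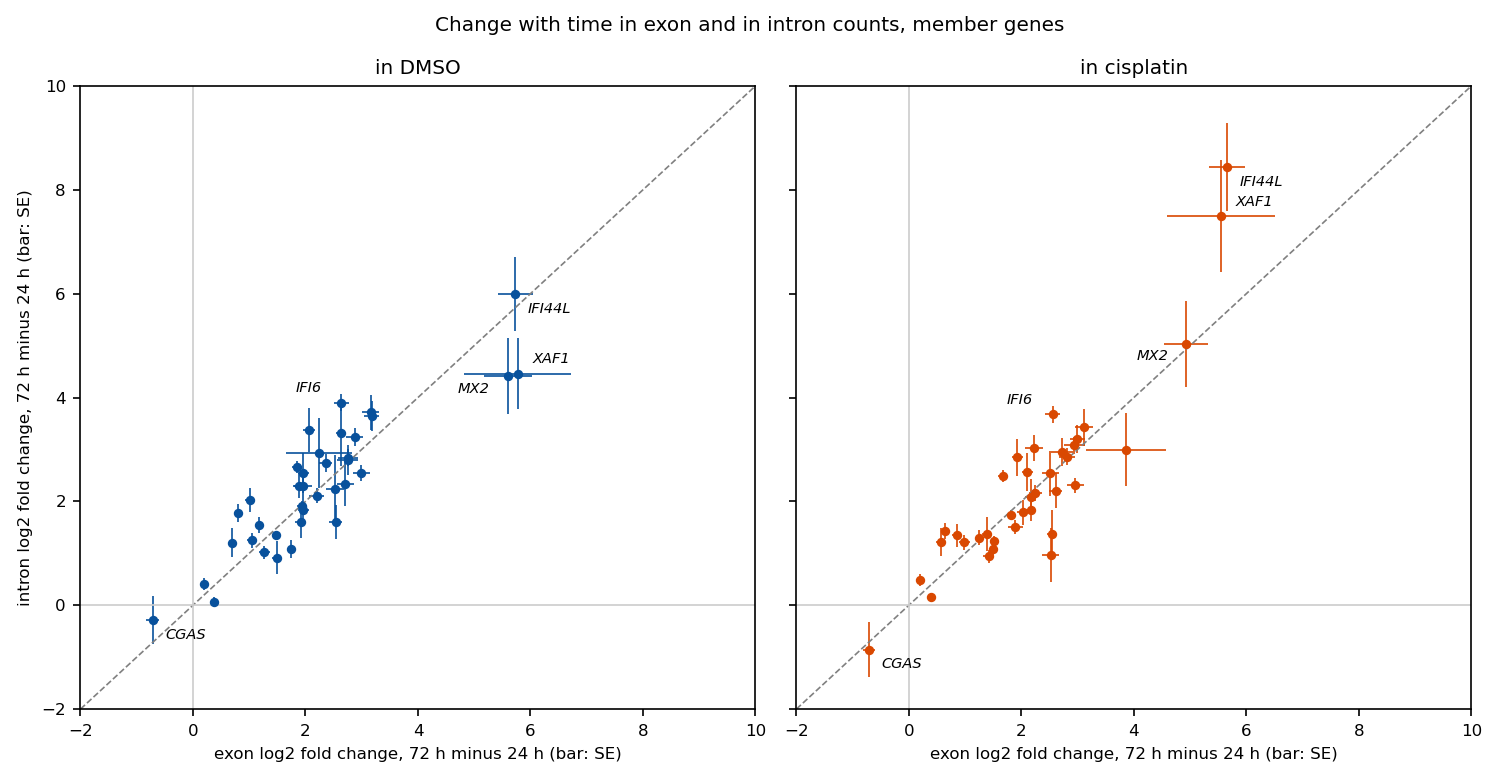
Log2 change from 24 h to 72 h in intron counts (y) against that in exon counts (x) for the 37 members tested in both, with SE bars, in DMSO (left) and in cisplatin (right). The dashed line marks equal change, and the points scatter along it, with IFI6 above the line in both panels (intron 3.90 and 3.67 on the log2 scale) and CGAS at the lower left.

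The intronic share ranged widely between members. OAS2 held 48.0% of its counts in introns in DMSO at 24 h and 44.4% at 72 h, with 49.5% and 44.1% in cisplatin. PARP9 held 38.9, 39.4, 41.0 and 42.1% in DMSO at 24 h, DMSO at 72 h, cisplatin at 24 h and cisplatin at 72 h, OAS1 28.5, 27.0, 29.8 and 27.7%, and IFI44 22.1, 32.2, 23.1 and 32.8% in the same order. XAF1 was at 49.7 and 47.1% in DMSO and cisplatin at 72 h, with few counts. OAS1, OAS2 and OAS3 overlap a gene on the opposite strand, and PARP9 overlaps DTX3L, so antisense reads may be part of these shares. ISG15, B2M, BST2 and HLA-C had at most 1.02% in any group. The 4 IFIT genes were at 0.0839 to 1.20%.

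The ratio of exon to intron counts, the measure of the splicing question, was tested in 38 members with edgeR. Against DMSO, cisplatin changed it for 0 members at 24 h (0% of 9380 genes) and 72 h (0.0213%). At an unadjusted p under 0.05 there were 9 and 3 members (6.33% and 6.24% of all genes in either direction), the 9 all lower. Over all genes too the median log2 change at 24 h lay below 0, at -0.09, beside -0.18 for the members. With time it changed for 6 members in DMSO, 2 higher and 4 lower (8.09% and 3.37% of all genes), and for 7 in cisplatin, 4 higher and 3 lower (8.36% and 3.56%). IFI6 fell by 1.27 ± 0.18 on the log2 scale in DMSO and by 1.06 ± 0.17 in cisplatin, its intronic share going from 1.82 to 4.17% and from 2.32 to 4.70%. It overlaps an annotated gene on the opposite strand, so antisense reads may be part of its share. IFI44 fell by 0.75 ± 0.14 in both, and B2M by 0.93 ± 0.18 and 0.71 ± 0.17. HLA-C fell in DMSO (-0.96 ± 0.22), ISG20 (0.73 ± 0.21) and STING1 (0.38 ± 0.12) rose there, and IFIH1, OAS2, OAS3 and HERC5 rose in cisplatin (0.73, 0.33, 0.54 and 1.62). The calls of IFI6, IFI44, B2M and OAS3 held when any 1 library was left out, and the others did not. In DMSO, STING1 was lost without replicate 2 or 3 of either time (adjusted p = 0.050 to 0.18), ISG20 without replicate 2 or 3 of 24 h or replicate 1 of 72 h (0.071 to 0.096) and HLA-C without replicate 1 of 24 h (0.066), and 4 to 7 members were called in all. In cisplatin, IFIH1 was lost without replicate 1 or 2 of 24 h or replicate 2 of 72 h (0.051 to 0.078), and OAS2 and HERC5 without replicate 1 or 3 of 24 h or any replicate of 72 h (0.051 to 0.11 and 0.062 to 0.18). In all, 4 to 8 members were called there, with 4 without replicate 1 of 24 h or replicate 2 of 72 h. A quasi-binomial regression fitted to each gene alone called 0 members in DMSO and 1 in cisplatin, IRF9 (0.47, adjusted p = 0.037). It also called far fewer of all genes than edgeR did, as given in the last section.

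The logistic regression on exon and intron counts that the study's methods describe was run beside it. It treats every fragment as an independent draw and takes no spread between replicates into account. It called 7 of 31 members at 24 h, all with a lower ratio in cisplatin (10.7% of all genes lower), and 10 of 40 at 72 h, 4 higher (1.73%) and 6 lower (9.7%). The members called at 24 h were STING1, IRF9, OAS2, OAS3, IFI6, TRIM25 and B2M, and STING1 and IFI6 were lower again at 72 h (-0.16 and -0.18). Without cisplatin replicate 2 or DMSO replicate 2 of 24 h it called 1 or 2 members at 24 h, and without cisplatin replicate 1 of 72 h it called 6 at 72 h. The calls over all genes moved as well when 1 library was left out, from 245 to 1555 at 24 h and from 729 to 1138 at 72 h. None of the members it called between cisplatin and DMSO passed the edgeR test of the ratio, which uses the spread between libraries. With time, the regression called 17 of 32 members in DMSO and 17 of 33 in cisplatin (33.7% and 40.6% of all genes in either direction).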

How the data were processed

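Reads were cut back with Trim Galore 0.6.0 by the authors, mapped to GRCh38 with HISAT2 2.1.0, and assigned with HTSeq to exons or introns of Ensembl release 98. Per the labels, the library kit kept strand. The strand option of the counting is not given in the sources used here. The deposited values are whole-number counts per gene and library, not normalized. Genes lacking one of the 2 kinds of entry entered the test of the other kind alone.

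Symbols and positions came from GENCODE release 44. Exon counts, intron counts and their ratio were each fitted over the 12 libraries with edgeR 4.0.16 in R 4.3.3 (glmQLFit, glmQLFTest, filterByExpr, TMM, Benjamini-Hochberg over all genes tested, adjusted p under 0.05). The ratio needed 10 exon and 10 intron counts in 3 libraries, with each library's total as size and its own term. The logistic regression, as run here, needed 1 exon and 1 intron count in each of 6 libraries. The methods of the study state no such filter, so the calls given are those of this run. Scripts were tested on simulated data. DESeq2 1.42.0, other scalings and filters, a replicate block, thinned counts and each library left out were alternatives. Intervals of counts cover counting error only, as the reads carried no molecular identifiers.

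The members, the other gene lists and the tests were chosen with earlier results of these data known. All members were named, as were, outside the list, those with the largest called change, interferons and receptors, except that some items are not reported here. Other genes are named as markers or gaps. Over all genes, deviations of same-numbered replicates correlated at -0.11 to 0.10, and the replicates were not treated as pairs. Replicate pairs differed beyond sampling noise.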

Additional observations from a re-analysis of the deposited data

How the results depend on the processing

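Exon changes of the members with time were the firmest values: over all alternatives 39 or 40 of 40 members were called in DMSO and in cisplatin, and 5 calls were lost, all of TAP2 when 1 library was left out. Intron counts gave 31 to 36 called members in DMSO and 31 to 34 in cisplatin. No direction of a called value was reversed. The members' median cisplatin difference at 24 h ran from -0.18 to 0.10, and their median interaction from -0.25 to 0.07, when 1 library was left out. The other values below are counts of calls, and the cause of their moves was not tested except where fewer libraries or another set of tested genes makes the difference by construction.

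In exon counts, testing every gene with at least 1 count called 7 genes at 24 h, 154 genes and 3 members at 72 h, and 20 genes in the interaction. DESeq2 called 96 genes at 72 h and 2 in the interaction. Leaving out 1 library gave 0 to 1 gene at 24 h, 0 to 72 at 72 h (72 without DMSO replicate 3 of 72 h) and 0 to 1 in the interaction.

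In intron counts of all genes, the 2 calls at 24 h were lost with DESeq2 and with scaling by the exon library sizes (0 each), and 5 genes were called with no filter beyond 1 count. At 72 h the counts were 2 (DESeq2), 19 (no filter beyond 1 count), 26 (the 6 libraries alone, with 1 member, IRF7) and 7 (thinned to the smallest library). The interaction gave 0 (DESeq2, exon scaling), 1 (total counts as library size) and 11 (no filter beyond 1 count). Leaving out 1 library gave 0 to 3, 3 to 12 and 0 to 7 genes for 24 h, 72 h and the interaction.

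For the exon to intron ratio, the logistic regression of the study's methods, as run here, called 7 members and 1110 genes for the drug at 24 h, 10 and 1144 for the drug at 72 h, 17 and 3278 between the DMSO times, and 17 and 3984 between the cisplatin times. A quasi-binomial regression called 0 genes for cisplatin at 72 h, 0 members and 64 genes for time in DMSO, and 1 member and 97 genes for time in cisplatin. Once 1 exon and 1 intron count in any single library sufficed, 4 genes were called for cisplatin at 72 h. Leaving out 1 library gave 1 to 4 genes for cisplatin at 72 h, 699 to 1189 for time in DMSO, 4 to 8 members and 636 to 1218 genes for time in cisplatin, and 0 to 1 gene in the interaction. In the logistic regression it gave 1 to 7 members and 245 to 1555 genes for cisplatin at 24 h and 6 to 10 members and 729 to 1138 genes at 72 h.

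The labels do not say that a replicate number marks anything shared, and over all genes the deviations of same-numbered replicates correlated at -0.108 to 0.102, so they were not treated as pairs. Among the members, DMSO replicate 1 was the highest of its 3 for 36 of 40 at 24 h and for 38 at 72 h. No such ranks were taken over all genes. A fit blocked on replicate number gave, in exon counts, 40 called members in both comparisons of times and 0 in both comparisons of drug and vehicle, and the intron calls of all genes at 24 h and in the interaction went to 0. In the ratio, the replicate block lost STING1 in DMSO and HERC5 in cisplatin (adjusted p = 0.056 each, edgeR) and added RIGI in DMSO (0.043). Depth limits the low members most: at 24 h a count of 3 stood for 0.0875 to 0.173 CPM, about the level of IFI27 and MX2 and above that of XAF1.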
